A study of Mus musculus with 2 samples.

Results

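The barcodes described here are liver droplets that carried RNA from hepatocytes together with an unusually large share of mitochondrial transcripts. A barcode is the label of 1 droplet, which holds a nucleus and whatever else was captured with it. Members were chosen by 2 measured values. They had from 1% to 10% of their unique molecular identifiers (UMIs, 1 per captured RNA molecule) from the 13 mitochondrially encoded mRNAs. They also had at most 1 UMI summed over 9 genes of other liver cells (Stab2, Ptprb, Adgre1, Timd4, Reln, Ntm, Skap1, Pax5 and Flt3), called the gate below. The rule found 1209 of 29613 barcodes, with 221 of 14912 in the HKO library and 988 of 14701 in the WT library. They were compared, within each library, with barcodes of the same gate under 0.2% mitochondrial UMIs, 6730 in HKO and 2491 in WT. The 2 classes are called mitochondria-rich and mitochondria-poor.

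The study profiled nuclear RNA by droplet sequencing of transcript 3' ends in liver of C57BL/6 mice aged 12 weeks, 48 h after partial hepatectomy (PHx). The design text names Sox9HKO and Sox9f/f mice, and there was 1 library titled HKO and 1 titled WT, so every comparison between them compares 2 libraries. The labels give neither the Cre line behind Sox9HKO, nor the meaning of the H, nor the number of animals, and the WT library is taken as the Sox9f/f group from the design text. Sox9 itself had 2 UMIs in mitochondria-rich barcodes of HKO (3.02 CPM) and 36 in those of WT (12.1 CPM), and in mitochondria-poor barcodes it stood at 6.03 and 10.9 CPM. CPM is the UMI count per 1e6 non-mitochondrial UMIs of the class. A 3' tag may lie outside the deleted part, so these levels do not check the genotype.

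Mitochondria lie in the cytoplasm, so their transcripts are not part of a clean nucleus and are commonly read as a trace of cytoplasm that came along with it. Messenger RNA is made and spliced in the nucleus and then exported, and a stable, efficiently exported mRNA is mostly cytoplasmic. Hepatocytes devote much of their mRNA to plasma proteins, which ribosomes on the endoplasmic reticulum translate and which enter the secretory route through a hydrophobic signal peptide. Some RNAs, such as the long noncoding RNAs Malat1 and Neat1, are retained in the nucleus.

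The first 25 codons of 8 coding sequences are shown so that secreted and cytosolic proteins among the mRNAs highest in mitochondria-rich barcodes can be compared. A codon with T as its second base encodes a hydrophobic residue, and these T bases are in capitals. Apoa2 (chr1:171225054-171226379, plus strand), Orm2 (chr4:63362449-63365878, plus), Mup20 (chr4:62050234-62054158, minus), Apoe (chr7:19696109-19699188, minus) and Trf (chr9:103204001-103230444, minus) encode secreted proteins. Fth1 (chr19:9980598-9985098, plus) encodes the cytosolic ferritin heavy chain, Rps27a (chr11:29545846-29548109, minus) a ribosomal protein fused to ubiquitin, and Tmsb4x (chrX:167207093-167209315, minus) a cytosolic actin-binding peptide. Coordinates are those of the gene, and the sequences are spliced coding sequence read from the start codon, 5' to 3', from the GENCODE vM21 transcripts of GRCm38.
Apoa2: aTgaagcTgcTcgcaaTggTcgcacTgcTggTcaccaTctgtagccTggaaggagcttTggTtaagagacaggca
Orm2: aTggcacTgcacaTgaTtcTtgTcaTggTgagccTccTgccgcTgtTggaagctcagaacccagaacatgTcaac
Mup20: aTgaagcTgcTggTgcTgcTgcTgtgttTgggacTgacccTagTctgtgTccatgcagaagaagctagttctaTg
Apoe: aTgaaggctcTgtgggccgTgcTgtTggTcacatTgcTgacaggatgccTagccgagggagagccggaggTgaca
Trf: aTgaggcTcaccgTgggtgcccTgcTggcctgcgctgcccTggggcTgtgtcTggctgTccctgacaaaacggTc
Fth1: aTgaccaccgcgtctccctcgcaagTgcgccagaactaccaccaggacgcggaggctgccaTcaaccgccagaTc
Rps27a: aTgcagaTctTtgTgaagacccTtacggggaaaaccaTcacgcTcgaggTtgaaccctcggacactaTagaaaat
Tmsb4x: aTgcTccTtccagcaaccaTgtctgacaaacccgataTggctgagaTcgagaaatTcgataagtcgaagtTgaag

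Of the 25 codons, 12 had T in the second place in Apoa2, 13 in Orm2 and 13 in Mup20. Apoe and Trf had 10 each, Rps27a 9, Tmsb4x 8 and Fth1 4. All 8 mRNAs were past the threshold used below in both libraries.

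Mitochondrial share was the value that chose the members, and its distribution differed between the libraries. The median share among all gate-passing barcodes was 0.0836% in HKO and 0.326% in WT. Members were 2.49% of the gate-passing barcodes of HKO and 10.6% of those of WT. In HKO 971 gate-passing barcodes had no mitochondrial UMI, against 5 in WT. Members spread over the allowed range, with a median of 1.52% and a highest share of 8.27% in HKO, and 1.95% and 9.98% in WT. The barcodes next to the lower limit had 0.994% just outside and 1.001% just inside in HKO, and 0.9996% and 1.001% in WT, so the limit cuts a continuous range. Another 7 gate-passing barcodes of HKO and 141 of WT exceeded 10% and are not members.

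**Figure D1:**
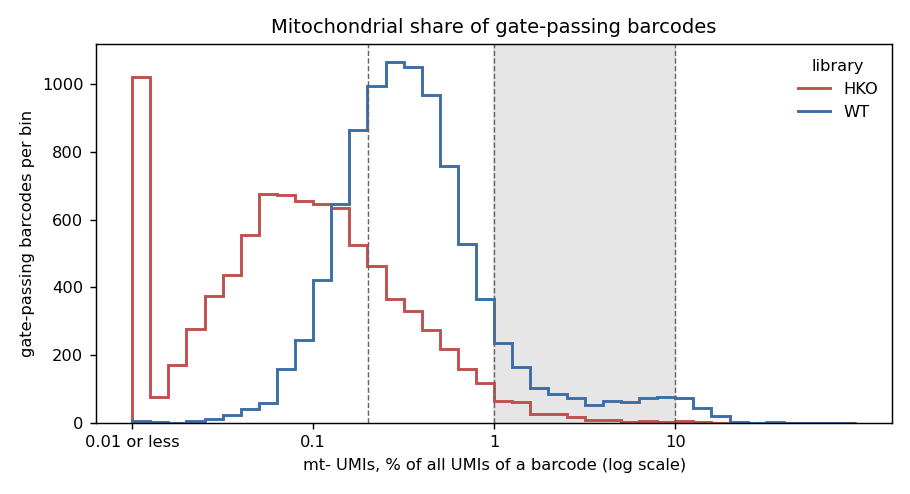
Gate-passing barcodes (y axis, number per bin) by the share of UMIs from mitochondrially encoded genes (x axis, percent, log scale) in the HKO and WT libraries; dashed lines mark 0.2%, 1% and 10%, and the grey band holds the members. The WT histogram lies to the right of the HKO histogram, and 971 HKO barcodes without a mitochondrial UMI are in the leftmost bin.

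Members were shallower than the barcodes they are compared with. Their median was 2153 UMIs and 1373 genes in HKO and 2495.5 UMIs and 1235.5 genes in WT, against 3808 UMIs and 2049 genes, and 4463 UMIs and 2189 genes, in mitochondria-poor barcodes. After thinning every barcode to 1000 UMIs the median number of genes was 729 against 743 in HKO and 625 against 710 in WT. In all, members held 661666 non-mitochondrial UMIs in HKO and 2964163 in WT, and mitochondria-poor barcodes 28518624 and 12457464. The lowest UMI total of any barcode was 1181 in HKO and 1968 in WT. The libraries shared 70 barcode sequences, of which 0 were members in both. Doublets were not removed.

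The name cytoplasm-rich hepatocyte barcodes was checked against markers. mt-Co1, which encodes a cytochrome oxidase subunit, stood at 132 CPM in mitochondria-poor and 3951 CPM in mitochondria-rich barcodes of HKO, and at 250 and 6053 CPM in WT, which the rule itself sets. All 15 hepatocyte markers had UMIs in both classes and libraries. So did all 14 endothelial, all 14 macrophage and all 14 stellate markers, so this detection does not set hepatocytes apart. The sum of the hepatocyte markers was 1.54 times higher in mitochondria-rich barcodes in HKO and 1.97 times in WT. Only 5 of the 15 in HKO and 6 in WT passed the threshold given below. Hnf4a, 1 of the 15, fell from 414 to 275 CPM in HKO and from 295 to 196 CPM in WT. Malat1 stood at 46395 CPM in the members of HKO and 31470 CPM in those of WT, against 52457 and 39619 CPM in mitochondria-poor barcodes. Malat1 was thus 1.13 and 1.26 times lower, so the members still held much of this nuclear RNA. Its level does not tell whether a droplet held a nucleus or free nuclear RNA. By level the members' markers were mainly those of hepatocytes, with added mitochondrial and secreted protein transcripts. Whether the added transcripts came from cytoplasm attached to a nucleus or from free RNA in the droplet cannot be told apart in these data.

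Markers of other liver cells were also higher in the members, despite the gate. The sum of 14 macrophage markers was 2.39 times higher in HKO and 1.94 times in WT, of 14 stellate and mesenchymal markers 2.58 and 1.91 times, and of 14 endothelial markers 1.77 and 1.74 times. The sum over the 9 gate genes was 1.502 and 1.62 times higher by CPM. This is no check, since the rule allows 1 such UMI per barcode and members were shallower. Counted by barcode, 86 of 221 members and 2468 of 6730 mitochondria-poor barcodes of HKO held 1 gate UMI. In WT 429 of 988 and 1110 of 2491 did. The sum of 10 cholangiocyte markers was 0.76 and 0.77 times that of mitochondria-poor barcodes, but Sorbs2 alone gave 659 of its 772 UMIs in the members of HKO and 2413 of 2853 in those of WT. Of the cholangiocyte markers detected, 5 of 10 had a higher CPM in the members in HKO and 7 of 9 in WT. These sums remained small beside the hepatocyte markers: stellate markers reached 682 CPM and hepatocyte markers 25191 CPM in the members of HKO, and 437 and 59831 CPM in those of WT. In HKO 18 members, or 8.14%, had a hepatocyte marker share under the fifth percentile of mitochondria-poor barcodes, against 1 member in WT. With such barcodes left out of both classes, 361 genes of HKO and 285 of WT were higher by the threshold given below, against 384 and 289 with them. Leaving out every barcode with a UMI of the endothelial, macrophage or stellate lists left 19 members in HKO and 60 in WT, and there 41 of 954 measured genes were higher in HKO and 139 of 2915 in WT. The part of these other-cell RNAs in the results below was not tested otherwise. Haemoglobin UMIs in the members of WT numbered 669, of which 655 came from 1 barcode.

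The composition of a barcode differed between the lowest and the highest ranges of mitochondrial share. Together, 5 lists of secreted liver proteins (plasma carriers, acute phase proteins, coagulation and complement, apolipoproteins, major urinary proteins) took a median of 5.02% of non-mitochondrial UMIs in HKO barcodes under 0.05% and 21.3% in those from 5% to 10%. In WT the same medians were 11.4% and 32.6%. Over all mitochondria-poor barcodes, under 0.2%, the median was 5.09% in HKO and 11.6% in WT, close to that of the lowest range. Cytosolic ribosomal protein mRNAs went from 0.166% to 1.198% in HKO and from 0.276% to 1.02% in WT. Malat1 went from 5.34% to 4.28% in HKO and from 4.10% to 2.39% in WT. The mRNAs of liver transcription factors went from 2.09% to 1.15% in HKO and from 1.73% to 0.815% in WT. The top range held 10 barcodes in HKO and 211 in WT, and in the range from 2% to 5% the HKO quartiles of the secreted share were wide, at 4.76% and 13.7%.

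**Figure D2:**
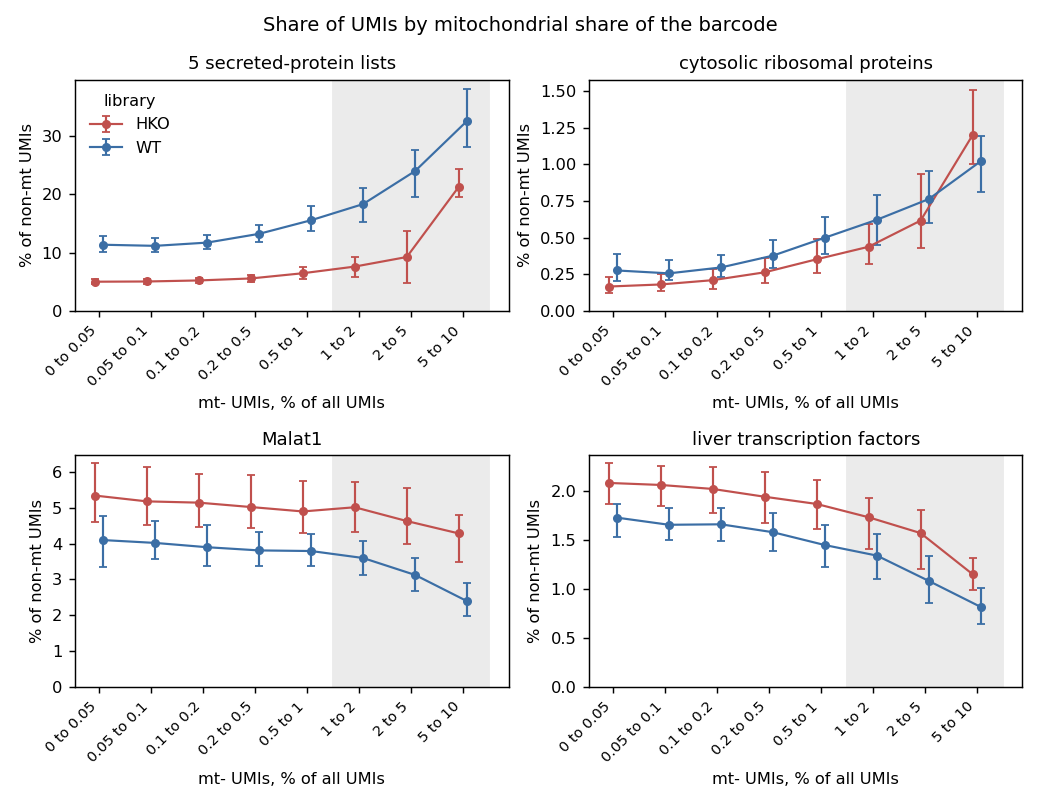
Share of non-mitochondrial UMIs (y axes, percent) taken by 4 groups of transcripts in gate-passing barcodes, by range of mitochondrial share (x axes, percent); points are medians over barcodes, bars reach to the quartiles, and the grey band holds the members. Secreted and ribosomal protein mRNAs are higher, and Malat1 and transcription factor mRNAs lower, in the upper ranges of both libraries.

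Single members differed widely in this. The secreted lists took from 2.29% to 43.7% of non-mitochondrial UMIs in the members of HKO, with a median of 8.04%, and from 4.51% to 50.3% in those of WT, with a median of 21.5%. In HKO 159 members (71.9%) and in WT 854 (86.4%) lay above the 95th percentile of mitochondria-poor barcodes, 6.31% and 15.1%. In HKO 19 members, or 8.60%, lay below the fifth percentile, against 1 in WT.

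Over single genes, more stood higher than lower in the members, though in WT this order depended on the class limits. A gene was measured where the mean of its 2 CPM was at least 20 and at least 10 UMIs were expected in the smaller class, and it counted as higher or lower where the log2 ratio of CPM, after adding 0.5, was at least 1 or at most -1. In HKO 384 of 6572 measured genes were higher (5.84%) and 42 lower (0.639%). In WT 289 of 6113 were higher (4.73%) and 51 lower (0.834%). The median ratio of all measured genes was -0.09 in HKO and -0.34 in WT, and every list median below is to be read against it. With both libraries scaled to their median gene the split was 415 higher and 30 lower in HKO and 438 and 9 in WT, where the share of higher among all genes past either threshold went from 85% to 98.0%. In WT the order turned with members of 2% to 10%, at 350 higher and 380 lower, and without barcodes holding endothelial, macrophage or stellate UMIs, at 139 higher and 186 lower. The floor on mean CPM lets in genes that pass through the class where they are high. Among genes with at least 20 CPM in mitochondria-poor barcodes, 203 of 6423 were higher and 79 lower in HKO, and 220 of 6285 were higher and 74 lower in WT. List counts below are descriptions under the mean floor, to be read against the 5.84% and 4.73% of all measured genes that were higher. Barcodes of 1 library are not replicates, so the comparison has no p-value. Intervals are exact 95% intervals for counting error only.

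Most genes higher in one library were also higher in the other, but few of the lower genes were shared. Of 5823 genes measured in both, 212 were higher in both, which is 73.6% of the 288 higher in HKO and 85.1% of the 249 higher in WT. Of the 31 lower in HKO and the 47 lower in WT, 9 were lower in both. None of the 5823 genes was higher in one library and lower in the other. Across the 5823 genes, which are not independent replicates, the ratios of the libraries had a Pearson r of 0.777 and a Spearman rho of 0.503. Of the 212 genes, 147 belonged to a described list and 65 to none of 5203 others measured. Ribosomal proteins gave 70 of them and the 5 secreted lists 41.

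**Figure D3:**
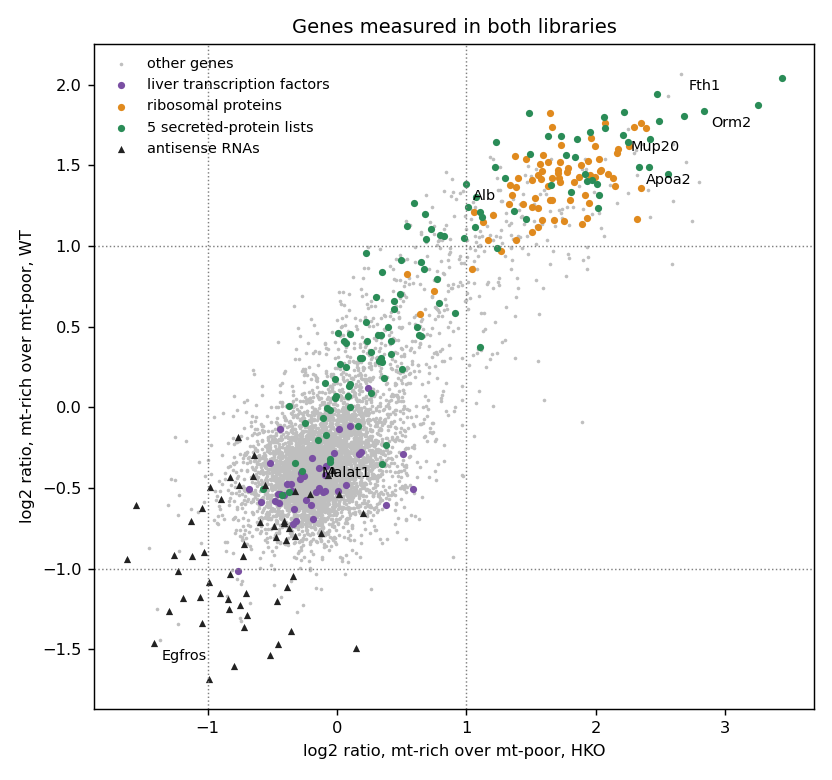
Log2 ratio of CPM, mitochondria-rich over mitochondria-poor barcodes, in HKO (x axis) and WT (y axis) for 5823 genes measured in both; each point is a gene, colours mark lists, triangles mark antisense RNAs, and dotted lines mark ratios of -1 and 1. Ribosomal and many secreted protein genes lie in the upper right, and antisense RNAs in the lower left.

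Among apolipoproteins and lipoprotein assembly genes, 11 of 16 measured members were higher in HKO and 12 of 16 in WT, with median ratios of 1.87 and 1.39. Apoa2, a structural protein of high density lipoprotein, stood at 292 CPM in mitochondria-poor and 1472 CPM in mitochondria-rich barcodes of HKO, and at 1145 and 3214 CPM in WT. Its ratio was 2.33 (2.24 to 2.43) in HKO and 1.49 (1.45 to 1.53) in WT, so both libraries showed it and the ratio was larger in HKO. Apoe, a ligand of lipoprotein receptors, went from 408 to 2267 CPM in HKO and from 1734 to 6658 CPM in WT. Apoa4 had the highest ratio of the list in HKO, 3.26, from 18.8 to 184 CPM, and a ratio of 1.87 in WT. Apoa1, the main protein of high density lipoprotein, had ratios of 1.92 and 1.45.

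Of the acute phase proteins, which the liver secretes in inflammation, 11 of 21 were higher in HKO and 13 of 20 in WT, with medians of 1.01 and 1.31. Orm2, an orosomucoid that binds lipophilic compounds in plasma, went from 101 to 722 CPM in HKO and from 655 to 2343 CPM in WT, ratios of 2.84 (2.70 to 2.98) and 1.84 (1.79 to 1.88). Orm1 went from 367 to 1972 CPM in HKO and from 1728 to 5478 CPM in WT. Hp, which encodes the haemoglobin-binding protein haptoglobin, had ratios of 2.07 and 1.80. Saa3 had a ratio of 2.56 in HKO, where 1 barcode held 28.1% of its UMIs in the members, and 1.45 in WT. Counting may have split reads between near-identical members of the orosomucoid and serum amyloid families.

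Plasma carriers and protease inhibitors were mixed, with 14 of 42 higher in HKO and 18 of 44 in WT, none lower, and medians of 0.62 and 0.88. Trf, the iron carrier transferrin, went from 480 to 2702 CPM in HKO and from 2442 to 8376 CPM in WT, ratios of 2.49 (2.42 to 2.56) and 1.78 (1.75 to 1.80). Hpx, the haem carrier hemopexin, had ratios of 2.25 and 1.64. Alb, which encodes serum albumin, was the most abundant of these mRNAs and went from 2421 to 4836 CPM in HKO and from 5458 to 14242 CPM in WT. That is a ratio of 0.998 in HKO, just short of the threshold, and of 1.38 in WT. Serpina1d had ratios of 2.69 and 1.81, but the Serpina1 genes are near-identical copies and its counts are uncertain.

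Major urinary proteins, small pheromone carriers made in the liver and excreted in urine, were measured for only 4 genes in HKO and 7 in WT, of which 3 and 7 were higher. Mup20 went from 201 to 934 CPM in HKO and from 300 to 968 CPM in WT, ratios of 2.22 (2.10 to 2.34) and 1.69 (1.62 to 1.76). Mup11 had ratios of 3.44 and 2.04, from 4.84 to 57.4 CPM in HKO and from 94.1 to 389 CPM in WT. In HKO it passed the mean floor through the members alone. Of the listed genes with at least 20 CPM in mitochondria-poor barcodes, 2 of 3 were higher in HKO and 5 of 5 in WT. The family consists of near-identical copies, so values of single members are uncertain.

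Coagulation and complement genes had lower medians than the other 4 secreted lists, although their proteins are secreted too. In HKO 4 of 32 were higher and in WT 4 of 33, against 5.84% and 4.73% of all measured genes. The medians were 0.21 and 0.30, which is 0.30 and 0.65 above the median of all genes. C8g, a subunit of complement component C8, had ratios of 2.02 (1.63 to 2.43) and 1.23 (1.08 to 1.39). C3, the central complement component, had ratios of 1.12 and 1.18 from 1175 and 3003 CPM in mitochondria-poor barcodes. F2, which encodes prothrombin, reached 0.73 in HKO and 1.10 in WT.

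Cytosolic ribosomal protein genes were higher almost without exception. Of the members measured, 72 of 75 were higher in HKO and 72 of 77 in WT, with medians of 1.68 and 1.41, and none was lower. All 79 listed genes, measured or not, had a higher CPM in mitochondria-rich barcodes in both libraries. Of those with at least 20 CPM in mitochondria-poor barcodes, 48 of 51 were higher in HKO and 65 of 70 in WT, against 3.16% and 3.50% of all such genes. Rps27a, which encodes a fusion of ubiquitin and a small subunit protein, went from 27.5 to 142 CPM in HKO and from 40.4 to 138 CPM in WT. Rplp1, of the ribosomal stalk, had ratios of 2.07 (1.76 to 2.40) and 1.76 (1.62 to 1.92). Ribosomal protein genes have many processed pseudogenes, which can share their reads.

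Nuclear-encoded subunits of the respiratory chain, which are translated in the cytosol and imported into mitochondria, were higher for 29 of 55 in HKO and 30 of 63 in WT. Their medians were 1.07 and 0.99. Of those with at least 20 CPM in mitochondria-poor barcodes, 15 of 37 were higher in HKO and 21 of 49 in WT. Cox4i1, of cytochrome oxidase, went from 22.0 to 112 CPM in HKO and from 56.2 to 153 CPM in WT. Uqcr11, of the cytochrome bc1 complex, had ratios of 2.37 (1.93 to 2.87) and 1.63 (1.41 to 1.89). Ndufa13, of the first complex, had ratios of 2.25 and 1.33. Translation factors did not share the level of ribosomal proteins: 4 of 25 were higher in HKO and 2 of 24 in WT, led by Tpt1, a small translationally controlled protein, with ratios of 2.25 and 1.73.

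Fth1 had the largest ratio, taken as the smaller of both libraries, of all genes that could be named, 2.66 (2.44 to 2.91) in HKO and 2.07 (1.94 to 2.21) in WT, from 42.0 to 269 CPM and from 70.9 to 298 CPM. The ferritin light chain Ftl1 had ratios of 2.07 and 1.54. Of the antioxidant and iron storage list 7 of 17 and 6 of 15 genes were higher, Gpx1, a glutathione peroxidase, among them with 1.78 and 1.24. Tmsb4x, which encodes an actin-binding peptide that blood cells express strongly, went from 16.5 to 99.7 CPM in HKO and from 18.8 to 72.9 CPM in WT.

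Genes of the endoplasmic reticulum machinery that receives secreted proteins were higher for 5 of 34 in HKO and 9 of 37 in WT, with medians of 0.34 and 0.51. Calr, a calcium-binding chaperone, went from 106 to 246 CPM in HKO and from 151 to 440 CPM in WT. Hspa5, the chaperone BiP, had ratios of 0.88 (0.71 to 1.05) in HKO and 1.31 (1.22 to 1.40) in WT. Sec61g, a subunit of the translocation channel, reached 1.11 and 1.09.

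Metabolic enzymes of the hepatocyte differed by list. Cytochrome P450 and conjugation enzymes had medians of 0.20 in HKO and 0.18 in WT, which is 0.29 and 0.52 above the median of all genes, with 5 of 51 and 2 of 49 higher. Urea cycle and amino acid breakdown had medians of -0.20 and -0.30, with 2 of 38 and 1 of 38 higher; Oat, ornithine aminotransferase, was higher in both (1.65 and 1.22), while Uroc1, urocanase, had ratios of -0.81 and -0.53. Fatty acid oxidation had medians of -0.05 and -0.28, and glucose and glycogen enzymes -0.14 and -0.28. Gapdh was the glycolytic exception, from 24.6 to 74.1 CPM in HKO and from 36.2 to 91.4 CPM in WT. In sterol and fatty acid synthesis, 2 of 28 and 2 of 35 were higher, and Scd1, a fatty acid desaturase, had ratios of 2.60 and 1.28. Of its genes with at least 20 CPM in mitochondria-poor barcodes, 1 of 29 was higher in HKO and 2 of 35 in WT. Of all measured genes 5.84% were higher in HKO and 4.73% in WT, so the small counts of these enzyme lists do not set them apart.

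Zonal genes differed in their medians. Of pericentral genes, which are expressed around the central vein, 7 of 17 were higher in HKO and 2 of 17 in WT, with medians of 0.71 and 0.30. Periportal genes had medians of -0.31 and -0.27, with 1 of 15 and 1 of 16 higher. Glul, glutamine synthetase and a marker of the hepatocytes next to the central vein, went from 124 to 283 CPM in HKO and from 242 to 298 CPM in WT, ratios of 1.18 and 0.30. Cyp2a5 had a ratio of 2.74 in HKO, where 1 barcode held 23.5% of the members' UMIs, and 1.15 in WT. Whether the members came from other zones than the mitochondria-poor barcodes was not tested.

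Cell cycle genes, which are induced during regeneration, were few at these levels. Of S phase and DNA replication genes 0 of 8 were higher in HKO and 0 of 14 in WT, with medians of 0.04 and -0.38. Of G2 and mitosis genes 2 of 6 were higher in HKO and 0 of 14 in WT, with medians of 0.60 and 0.16. These medians lay 0.69 and 0.50 above the median of all genes. Of those with at least 20 CPM in mitochondria-poor barcodes, 0 of 4 were higher in HKO and 0 of 13 in WT. Among those detected at any level, 30 of 34 in HKO and 26 of 34 in WT had a higher CPM in the members. Tpx2, of the mitotic spindle, passed the mean floor in HKO through the members alone, with 11.3 CPM in mitochondria-poor and 30.2 CPM in mitochondria-rich barcodes.

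Of liver transcription factors and nuclear receptors, 0 of 42 were higher in either library, against 5.84% of all measured genes in HKO and 4.73% in WT. Their medians were -0.22 in HKO and -0.51 in WT. Hnf4a, a central hepatocyte transcription factor, went from 414 to 275 CPM in HKO and from 295 to 196 CPM in WT, ratios of -0.59 in both. None of the 42 was lower in HKO and 1 was lower in WT, against 0.639% and 0.834% of all measured genes. Of 48 chromatin and splicing regulators, 0 were higher and 0 lower in either library, with medians of -0.07 and -0.42. Clock genes had medians of -0.28 and -0.64, Hlf, a clock output factor, with -0.72 and -0.79. Relative to the median of all genes, transcription factors stood at -0.13 in HKO and -0.17 in WT, and clock genes at -0.19 and -0.30. Chromatin and splicing regulators stood at 0.02 and -0.08, so they differed little from the median gene.

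RNAs known to be retained in the nucleus were not set apart by a large margin. The noncoding list had medians of -0.11 over 8 genes in HKO and -0.49 over 9 in WT. Neat1, the scaffold of paraspeckles, went from 3285 to 2745 CPM in HKO and from 5216 to 2980 CPM in WT, ratios of -0.26 (-0.33 to -0.19) and -0.81 (-0.84 to -0.78). Malat1 had ratios of -0.18 (-0.19 to -0.16) and -0.33 (-0.34 to -0.32), close to the median of all genes in WT. Meg3 differed between the libraries, with 1.06 in HKO and -0.18 in WT, and 1 barcode held 31.2% of its UMIs in the members of HKO. Among liver mRNAs described as nuclear retained, Mlxipl, a glucose-responsive transcription factor, had -0.11 and -0.78, Nlrp6 0.05 and -0.55, and Gcgr, the glucagon receptor, -0.26 and -0.48. In HKO these lay within 0.2 of the median of all genes, and in WT all of them lay below it.

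The lowest ratios belonged to antisense RNAs. Of 56 antisense genes measured in both libraries, 0 were higher, 13 were lower in HKO and 24 in WT, with medians of -0.72 and -0.91, against 16 and 15 lower of 5707 protein-coding genes. Only 9 genes were lower in both libraries, which is 29.0% of the 31 lower in HKO and 19.1% of the 47 lower in WT, and 6 of the 9 were antisense. Egfros, antisense to the EGF receptor gene, went from 359 to 135 CPM in HKO and from 475 to 172 CPM in WT, 2.67 and 2.76 times lower. Its partner Egfr went from 8885 to 7049 and from 10698 to 6957 CPM, 1.26 and 1.54 times lower.

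Other antisense RNAs among the lowest are given with their partners as a description, since they were named for their low ratios. Sorbs2os had ratios of -1.04 and -1.34 and Sorbs2 -0.49 and -0.44. Sardhos had -0.99 and -1.68 and Sardh -0.21 and -0.32. Sox5os4 had -1.26 and -0.92 and Sox5 -0.32 and -0.58. Rapgef4os2 had -0.82 and -1.04 and Rapgef4 -0.35 and -0.54. No source used here says whether counting used the strand, and without it reads of the partners cannot be told apart. The protein-coding genes lowest in both were Lrrn3, with -1.37 (-2.46 to -0.52) in HKO and -1.44 (-2.04 to -0.97) in WT, and Ackr4, a scavenging chemokine receptor, with -1.39 and -1.25. They rested on 10 and 14 UMIs in the members of HKO.

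Over all protein-coding genes, the shortest had the highest ratios. Among 5707 protein-coding genes measured in both, the 99 genes of up to 3 kb from first to last base had medians of 1.40 in HKO and 1.16 in WT, and 66.7% and 62.6% of them were higher. The 509 genes from 3 to 10 kb had medians of 0.28 and 0.16. Medians were -0.05 and -0.28 from 10 to 30 kb, -0.14 and -0.37 from 30 to 100 kb, and -0.17 and -0.43 above 100 kb. Across these genes Spearman's rho of ratio and length was -0.286 in HKO and -0.352 in WT, a description over genes that share their libraries. Among genes of up to 46.9 CPM in mitochondria-poor barcodes (mean of both libraries) the order turned at the long end: genes above 100 kb had medians of 0.19 in HKO and -0.20 in WT, with 17.8% and 11.6% higher, against -0.08 and -0.33 from 30 to 100 kb.

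The same order held outside the described lists. Genes in no described list had medians of 0.79 and 0.63 up to 3 kb (37 genes), 0.14 and -0.05 from 3 to 10 kb (341 genes) and -0.07 and -0.31 from 10 to 30 kb (1330 genes). Within the 5 secreted lists the medians were 1.89 and 1.43 up to 3 kb (14 genes), 1.46 and 1.31 from 3 to 10 kb (37 genes), 0.35 and 0.45 from 10 to 30 kb (35 genes) and 0.08 and 0.07 from 30 to 100 kb (25 genes). Genes in no list had medians of -0.14 and -0.37 from 30 to 100 kb, so the secreted lists had the higher median within each of these lengths.

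**Figure D4:**
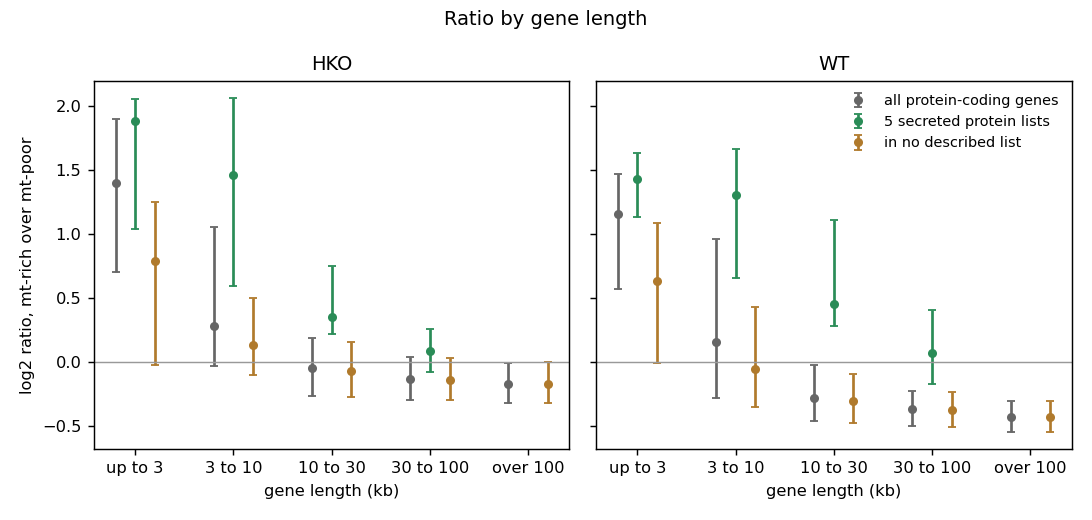
Log2 ratio of CPM, mitochondria-rich over mitochondria-poor barcodes (y axis), by gene length (x axis, kb) in HKO and WT; points are medians over genes, bars reach to the quartiles, and groups under 10 genes are not drawn. Medians are highest for genes up to 3 kb, and secreted protein genes lie above genes in no described list at each length up to 100 kb.

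The coding start was related to the ratio more weakly. The share of the first 25 codons with T in the second place, the feature capitalised in the sequences above, had a median of 44% in the secreted lists, 24% in ribosomal proteins and 28% in all protein-coding genes measured in both. Its rho with the ratio was 0.085 in HKO and 0.162 in WT over 5657 genes, smaller in size than that of gene length. The 212 genes higher in both had a median of 32% and a median length of 4261 bp, against 42381 bp for all. The promoter sequences were not examined.

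Some of the higher genes were long. Above 100 kb, 28 of 1192 genes were higher in HKO (2.35%) and 20 in WT (1.68%), a smaller share than the 5.01% and 4.33% of all protein-coding genes. In HKO they included Ptprc, the leukocyte antigen CD45, Zeb2, a transcription factor of mesenchymal and immune cells, Rbms3 from the stellate list and Fyb from the macrophage list, which were named after their values were seen. Ptprc went from 33.6 to 147 CPM in HKO and from 19.6 to 51.6 CPM in WT, and Zeb2 from 93.2 to 325 CPM and from 58.3 to 128 CPM. With barcodes low in hepatocyte markers left out, Ptprc still had ratios of 1.81 and 1.34 and Zeb2 of 1.63 and 1.11, while Runx1 had 1.56 with them and 0.98 without them in HKO, and Sdk1 1.604 and 0.74. In HKO 1 barcode held 55.6% of the members' UMIs of Sdk1 and 58.3% of those of Sgcz.

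A similar difference between mitochondria-rich and mitochondria-poor barcodes was present among those that failed the gate. There 344 of 6949 genes were higher and 51 lower in HKO, between 179 mitochondria-rich and 3573 mitochondria-poor barcodes, and 499 of 6517 and 49 in WT, between 623 and 1304. The ratios inside and outside the gate had an r of 0.718 over 6321 genes in HKO and 0.889 over 6007 in WT. Ribosomal proteins had medians of 1.64 and 1.72 outside the gate, and apolipoproteins of 1.69 and 1.496. The higher groups were thus also high in barcodes that failed the gate.

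The study's own contrast was read within each class. In mitochondria-rich barcodes 639 of 6378 measured genes were higher in HKO than in WT (10.0%) and 239 lower (3.75%), with a median ratio of 0.38. In mitochondria-poor barcodes 190 of 6397 were higher (2.97%) and 273 lower (4.27%), with a median of 0.16. These splits depend on the scaling. With both libraries scaled to their median gene, 237 were higher and 446 lower in mitochondria-rich barcodes, so that the share of higher among all calls went from 72.8% to 34.7%, and 120 were higher and 364 lower in mitochondria-poor barcodes, from 41.0% to 24.8%. List medians are therefore given relative to the median of all genes.

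Secreted protein mRNAs were lower in HKO in both classes. The classes did not make the libraries equal in mitochondrial share. Its median was 0.058% in HKO and 0.140% in WT in mitochondria-poor barcodes, and 1.52% and 1.95% in mitochondria-rich ones. A difference between the mice and a difference in carried cytoplasm or free RNA therefore cannot be told apart here. Relative to the median of all genes, major urinary proteins stood at -2.54 in mitochondria-rich and -1.72 in mitochondria-poor barcodes, acute phase proteins at -1.70 and -1.24, plasma carriers at -1.46 and -1.06, and apolipoproteins at -1.27 and -1.43. Sterol and fatty acid synthesis stood at -1.09 and -0.99 and ribosomal proteins at -0.66 and -0.75. Clock genes stood at 0.31 and 0.38, chromatin and splicing regulators at 0.16 and 0.07. In counts, 27 of 44 plasma carriers and 11 of 21 acute phase genes were lower in mitochondria-rich barcodes, and 0 of 77 ribosomal protein genes.

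Single secreted genes showed this in either class. Apoa2 stood at 1472 CPM in the members of HKO and 3214 CPM in those of WT, a ratio of -1.13, and at -1.97 in mitochondria-poor barcodes. Orm2 had -1.70 and -2.69. Trf had -1.63 and -2.35, and Alb -1.56 and -1.17. Mup20 was an exception in the members, at 934 and 968 CPM, a ratio of -0.05 against -0.58 in mitochondria-poor barcodes. Across 5963 genes the contrasts in the 2 classes had an r of 0.858, as a description; they compare the same 2 libraries.

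**Figure D5:**
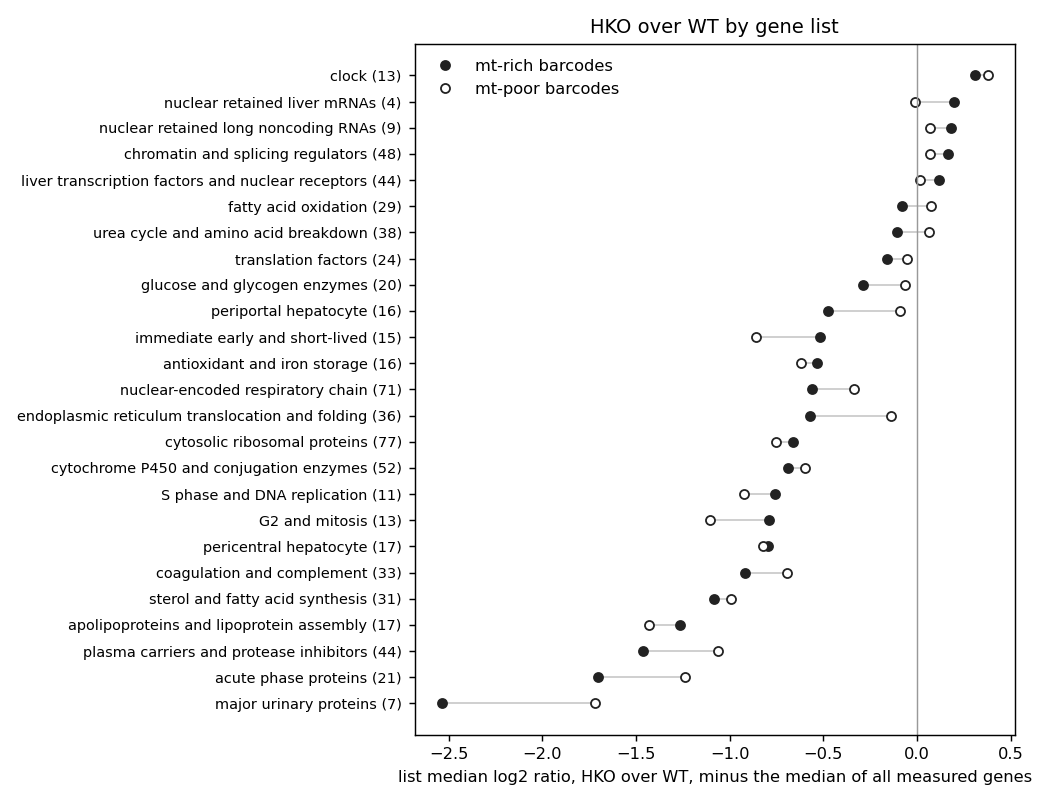
Median log2 ratio of HKO over WT for each gene list, minus the median of all measured genes (x axis), in mitochondria-rich barcodes (filled) and mitochondria-poor barcodes (open); the number of genes measured in mitochondria-rich barcodes is in brackets. Major urinary, acute phase and plasma carrier lists lie lowest, and clock genes highest, in the mitochondria-rich class.

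Of the genes highest in HKO over WT in the members, some were as far apart in mitochondria-poor barcodes. Lpin1, a phosphatidate phosphatase, had 405 CPM in the members of HKO against 27.3 in those of WT, a ratio of 3.87 (3.53 to 4.27), and 3.86 in mitochondria-poor barcodes. Selenbp2 stood at 583 and 40.1 CPM, and Zbtb16, a transcription factor, at 1285 and 110 CPM. Cux2, a homeobox gene, had 44 UMIs in the members of HKO and 1 in those of WT, a ratio of 6.32 with an interval of 5.07 to 12.96 that reflects that single UMI. All 4 had ratios above 3 in mitochondria-poor barcodes as well.

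Among the genes lowest in HKO, Iigp1, an interferon-induced GTPase, had 110 CPM in the members of HKO against 1475 in those of WT, a ratio of -3.73 (-4.09 to -3.41). Igtp, another interferon-induced GTPase, stood at 10.6 and 99.5 CPM. Nr0b2, the bile acid-responsive receptor SHP, had 2 UMIs in HKO and 157 in WT, a ratio of -3.92 (-7.19 to -2.25). Ratios in mitochondria-poor barcodes were -4.03 for Iigp1, -3.63 for Igtp and -3.67 for Nr0b2.

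Several others of the most different genes rested on 1 barcode of a library. One barcode held 97.0% of the UMIs of Il1rapl1, 82.1% of those of Slpi, 63.5% of those of Pcdh11x and 51.9% of those of F13a1 in the members of HKO. In the members of WT 1 barcode held 97.8% of the UMIs of Hba-a2, a haemoglobin gene. In mitochondria-poor barcodes Il1rapl1 had a ratio of -0.07 and Slpi of 0.18, while Pcdh11x had 3.59 and F13a1 1.01, and Hba-a2 went the other way, at 2.88. There too 1 barcode weighed: it held 1201 of the 1314 haemoglobin UMIs of mitochondria-poor HKO barcodes. Each gene's leading barcode was also left out of each sum. The counts of genes higher and lower in HKO than in WT then stayed within 1.5 times of those with it, in both classes.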

How the data were processed

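Nuclear RNA of 2 liver libraries, HKO and WT, each grouped by its sample title, was analysed from the deposited tables. These hold raw UMI counts per gene and barcode made by the authors, not normalized, and the file headers give Cell Ranger 5.0.0. STAR, Seurat 3.2.0 and GRCm38 appear in the submitters' processing notes with no role or order. No source used here states the handling of introns or strand or the isolation of nuclei, and per the labels the extraction yielded total RNA. Library totals were 61123904 UMIs in HKO and 64609301 in WT. The counting intervals rest on gene counts and on the non-mitochondrial UMIs of each class, which in the members were 661666 in HKO and 2964163 in WT.

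UMIs of each class in each library were added up and expressed per 1e6 non-mitochondrial UMIs. Ratios are log2 of CPM after adding 0.5. Intervals are exact Poisson (levels) and exact conditional (ratios) at 95% and cover counting error only. Each group is 1 library, so nothing was tested. Annotation was GENCODE vM21, with 27722 of 27998 genes matched by identifier. The ratio code was tested on simulated counts. Software was pandas 2.3.3, scipy 1.17.1 and numpy 2.4.6 under Python 3.11.15, with plots by matplotlib 3.10.9.

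Members, gene lists and alternatives were chosen with earlier results of these data known. Genes named were, of genes measured in both libraries and without gene models of systematic name, the 15 with the highest and 15 with the lowest ratios in both, up to 4 per list, the 6 given markers, Malat1, Neat1, Alb and Sox9, and the 10 highest and 10 lowest of HKO over WT in members. Partners of antisense genes and long genes were added after their values were seen. No protein sequences were used, and some genes that this rule names are not reported here. Alternatives changed the class limits, the gate, the scaling, the weight of barcodes, the floor, the pseudocount, the depth range and outlying barcodes.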

Additional observations from a re-analysis of the deposited data

Results flagged for a closer look

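Gate-passing barcodes above the 10% limit were outside all comparisons and carried an even larger share of secreted protein mRNAs. The 5 secreted lists took 34.1% of the summed non-mitochondrial UMIs of 7 such barcodes in HKO, against 9.20% in the members and 5.06% in mitochondria-poor barcodes. In WT they took 42.0% in 141 barcodes, against 22.4% and 11.2%. Malat1 took 2.19% in HKO and 1.68% in WT above 10%.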

How the results depend on the processing

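No named gene past the threshold changed sign under those of the 16 alternatives in which it was still measured. A gene that was not measured under an alternative was left out there, so such losses are not in the counts that follow. Some fell under it, in 49 cases in HKO, 57 in WT, and 50 and 17 in HKO over WT in members and in mitochondria-poor barcodes. A case is 1 gene under 1 alternative. Of all values of named genes, 221 of 2074 in HKO and 494 of 2219 in WT left their counting interval. The larger of the higher and lower counts turned round in WT and in HKO over WT, as given below. Of the alternatives 4 were chosen after seeing the data: members of 1% to 2%, barcodes with other cell type UMIs left out, barcodes low in hepatocyte markers left out and the leading barcode of each gene left out. Relative to the median of all genes, in mitochondria-rich over mitochondria-poor barcodes ribosomal proteins ranged from 1.496 to 2.44 in HKO (15 alternatives, since none was measured in HKO once barcodes with other cell type UMIs were left out) and from 1.30 to 2.15 in WT, apolipoproteins from 1.55 to 2.75 and from 1.22 to 2.23, and transcription factors from -0.21 to -0.09 and from -0.23 to -0.11. No paired analysis was possible because there was 1 library per group and the titles shared fewer than 2 replicate numbers.

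These counts moved beyond 1.5 times their reported value, and the cause was not tested. Members of 2% to 10% numbered 67 in HKO and 486 in WT, and gave 217 higher and 99 lower genes in HKO, 380 lower against 350 higher in WT, and 130 lower in HKO over WT. Members of 1% to 2% numbered 502 in WT, with 22 lower genes. A gate of 0 UMIs left 135 and 559 members, with 66 and 86 lower genes. A middle range of UMIs per barcode left 116 HKO members. Poor barcodes under 0.1% gave 79 lower genes in WT. Equal weight per barcode gave 77 and 84 lower genes. Median ratio scaling gave 438 higher and 9 lower genes in WT, 237 higher and 446 lower in HKO over WT in members, and 120 higher in mitochondria-poor barcodes.

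A floor of 5 CPM gave 67 lower genes in HKO, 498 higher and 202 lower in WT, and 317 higher and 439 lower in HKO over WT in mitochondria-poor barcodes. A floor of 50 CPM, which tests fewer genes, gave 158 higher and 5 lower in HKO, 178 and 12 in WT, 266 and 152 in HKO over WT in members, and 119 and 164 in mitochondria-poor barcodes. A pseudocount of 5 CPM gave 24 and 29 lower genes. Without barcodes with other cell type UMIs, 19 and 60 members gave 41 higher and 21 lower genes in HKO, 139 and 186 in WT, 123 and 91 in HKO over WT in members, and 295 higher in mitochondria-poor barcodes. Without the leading barcode of each gene, 68 genes were lower in mitochondria-rich than in mitochondria-poor barcodes of HKO. The 221 HKO members held 661666 UMIs, which limits the precision for genes of low level.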
